A study of Macaca mulatta with 12 samples.

Results

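TOB2, TMEM171 and P3H1 were followed across estrogen, estrogen plus progesterone, progesterone and placebo in the dorsal raphe of female rhesus monkeys. They were picked from an earlier look at these same arrays because each has a probe set (a group of short probes that reports 1 transcript region) whose signal was higher in all 9 arrays from hormone-treated animals than in all 3 placebo arrays. The 3 genes, of 12993 named on the array, have 6 of its 52766 probe sets that are not controls: 3 for TOB2, 2 for TMEM171 and 1 for P3H1. Of the 6, 5 were bright enough to be tested, among 26383 tested probe sets in all.

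The study hybridised tissue from 12 animals, 1 animal per Affymetrix array and 3 per group, after steroid capsules had been carried under the skin for 1 month. The labels name the groups as estrogen, estrogen and progesterone, progesterone, and placebo. OVX, taken to mean ovariectomized, appears in the placebo titles and in no others, and the sources do not say whether the hormone-treated animals were also operated on. The progesterone titles carry EP beside the word progesterone while the descriptions carry P, and these arrays are treated as progesterone alone. Doses and ages are not stated. The samples are tissue blocks that hold many cell types, so a change in RNA per cell cannot be told apart from a change in the number of cells of a type.

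As background, TOB2 belongs to the BTG/TOB family of antiproliferative proteins. These proteins bind the deadenylase subunits CNOT7 and CNOT8 of the CCR4-NOT complex, and TOB proteins also bind the cytoplasmic poly(A)-binding protein, which brings the shortening of poly(A) tails to chosen mRNAs. P3H1, also called leprecan, is a prolyl 3-hydroxylase of the endoplasmic reticulum that works in a complex with CRTAP and with the cyclophilin PPIB on newly made collagen chains. TMEM171 codes for a transmembrane protein whose function is not well established.

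Precision is set by having 3 animals a group: over all tested probe sets, the median distance from a group difference to either end of its 95% confidence interval was 0.49 (log2). The first arrays of the estrogen, estrogen plus progesterone and placebo groups stood apart from the other 9 on the first principal component (-51.6 to -44.0, against -1.64 to 29.0). The 3 progesterone arrays stood apart on the second (-54.5 to -14.1, against 0.50 to 20.4). Markers of serotonin neurons, which define this nucleus, were measured at mean log2 intensities of 7.31 for TPH2, the enzyme of serotonin synthesis in brain, 9.47 for the transcription factor FEV and 10.12 for SLC18A2, the vesicular monoamine transporter. The serotonin transporter SLC6A4 had no probe set under that name.

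TOB2 was separated from placebo on 1 of its 3 probe sets. On MmugDNA.7520.1.S1_s_at the deposited intensities were 155, 76.3 and 154 in the estrogen arrays, 181, 50.1 and 78.3 with estrogen plus progesterone, 151, 159 and 159 with progesterone, and 41.5, 45.2 and 19.1 in the placebo arrays. All 9 hormone arrays lay above all placebo arrays, as the rule requires and as in 0.269% of all tested probe sets, and the progesterone arrays lay closest to each other. On the normalized log2 scale the group means were 6.98 ± 0.52 with estrogen, 6.51 ± 0.85 with estrogen plus progesterone, 7.25 ± 0.08 with progesterone and 5.10 ± 0.64 with placebo (SD, n = 3 each). The log2 differences from placebo were 1.87, 1.41 and 2.14 for estrogen, the combination and progesterone (SE 0.42). No fold is given, since the placebo level was near that of the brightest control probe sets. Without the first array of the combination its difference was 0.95. These differences chose the gene and are given as a description, with no test.

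The lowest hormone array of this probe set, the second of estrogen plus progesterone, lay at 5.74, and the highest placebo array at 5.52, a gap of 0.21. All 3 placebo arrays were below the level used to admit probe sets to the test (log2 6.31), so this probe set was tested only because it was brighter in the hormone arrays. Its placebo mean of 5.10 was also below the brightest of 42 control probe sets for Bacillus subtilis transcripts, whose mean was 5.60. It was just above the second brightest, at 5.06. Whether those transcripts were added to the samples is not stated. In Affymetrix naming the ending _s_at marks probes that can match more than 1 transcript, so signal from a related transcript could not be separated from that of TOB2.

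The 2 other TOB2 probe sets were brighter and did not show this separation. The brightest of the 3 had normalized log2 values of 9.56, 9.53 and 9.12 with estrogen, 9.65, 9.47 and 9.89 with estrogen plus progesterone, 10.82, 10.43 and 10.006 with progesterone, and 9.36, 9.27 and 10.003 with placebo. Its differences from placebo were -0.14, 0.13 and 0.88 for estrogen, the combination and progesterone (SE 0.25). Without the third placebo array the estrogen difference was 0.09, and without the second that of the combination was -0.0093. Here 3 of the 9 hormone arrays lay above all placebo arrays, and the third of these only just did so. They were the progesterone arrays, which lay above all placebo arrays in 7.41% of all tested probe sets. In the deposited values of this probe set 2 of them did, since the third progesterone array (954) lay below the third placebo array (1045). The remaining one, MmugDNA.25281.1.S1_at, had values of 8.61, 9.05 and 8.96 with estrogen, 9.02, 9.26 and 8.87 with the combination, 8.96, 8.55 and 9.18 with progesterone, and 9.30, 8.62 and 8.91 with placebo. None of its 9 hormone arrays lay above all placebo arrays, since the first placebo array was the highest of the 12. Averaged over the hormone groups, the log2 difference from placebo was 1.81 (SE 0.34) on the first probe set, 0.29 (SE 0.21) on the brightest (0.15 without the second placebo array, 0.52 without the third) and -0.0027 (SE 0.18) on MmugDNA.25281.1.S1_at.

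**Figure D1:**
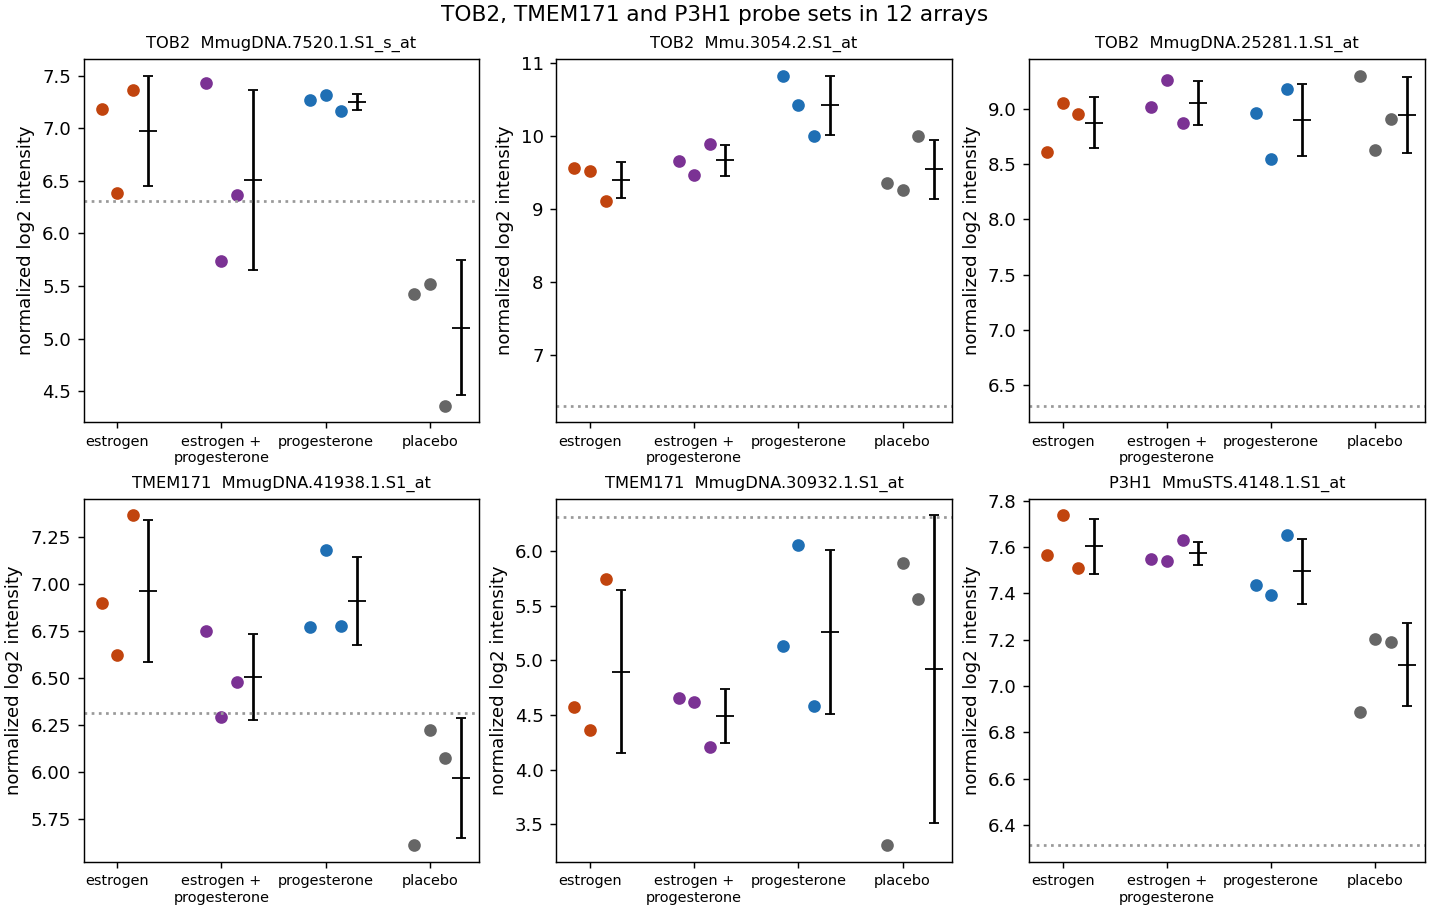
Normalized log2 intensity (vertical axis) of each probe set of TOB2, TMEM171 and P3H1 in the 4 groups, with 1 point per array and, beside the points, the mean and SD of the 3 arrays. The dotted line is the level of 6.31 above which the mean over all arrays had to lie for a probe set to be tested, and the hormone points clear all placebo points in 1 panel of each gene.

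TMEM171 was also separated from placebo on 1 probe set. The deposited intensities of MmugDNA.41938.1.S1_at were 129.6, 90.7 and 154 with estrogen, 119, 74.3 and 84.4 with estrogen plus progesterone, 105, 145 and 125 with progesterone, and 47.8, 74.96 and 64.0 with placebo. In these values the second array of the combination, at 74.3, lay below the second placebo array, at 74.96, so 8 of the 9 hormone arrays cleared all placebo arrays. After quantile normalization the same arrays stood at 6.29 and 6.22, a gap of 0.07, and all 9 did. TMEM171 therefore met the rule that chose it after normalization and did not meet it in the values as deposited.

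The TMEM171 group means were 6.96 ± 0.38 with estrogen, 6.51 ± 0.23 with estrogen plus progesterone, 6.91 ± 0.23 with progesterone and 5.97 ± 0.32 with placebo (normalized log2, SD, n = 3 each). The differences from placebo were 0.99, 0.54 and 0.94 (SE 0.23), or 1.99-fold, 1.45-fold and 1.91-fold, again as a description. When the first arrays of estrogen, the combination and placebo were left out together, the difference of the combination was 0.24. As with TOB2, no placebo array reached the level of 6.31. The second TMEM171 probe set, MmugDNA.30932.1.S1_at, was too dim to be tested: its values ran from 4.36 to 5.75 with estrogen, 4.202 to 4.65 with the combination, 4.58 to 6.06 with progesterone and 3.31 to 5.89 with placebo. On it 1 of 9 hormone arrays lay above all placebo arrays.

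P3H1 had the smallest difference and the smallest SE. Its only probe set, MmuSTS.4148.1.S1_at, had deposited intensities of 197, 210.1 and 173 with estrogen, 195, 184 and 193 with estrogen plus progesterone, 171, 168 and 211 with progesterone, and 117, 149.7 and 144 with placebo. The 9 hormone values fell between 168 and 211, all above the placebo values. The group means were 7.60 ± 0.12, 7.57 ± 0.05, 7.49 ± 0.14 and 7.09 ± 0.18 (normalized log2, SD, n = 3 each) for estrogen, the combination, progesterone and placebo. The differences from placebo were 0.51, 0.48 and 0.40 (SE 0.15), or 1.43-fold, 1.39-fold and 1.32-fold. All 12 arrays were above the testing level, so P3H1 was the gene of the 3 whose entry into the test did not depend on the hormone arrays.

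**Figure D2:**
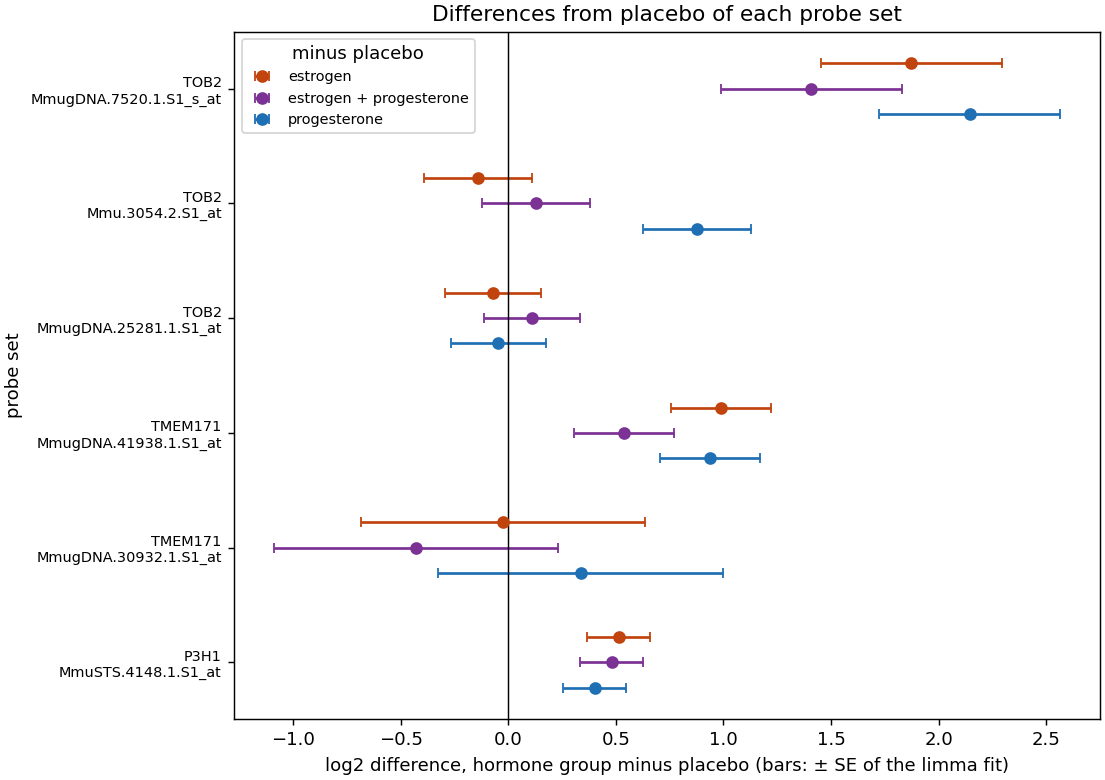
Log2 difference of each hormone group from placebo (horizontal axis) for the 6 probe sets, as points with the SE of the limma fit as bars. On the leading TOB2 probe set the points lie at 1.87, 1.41 and 2.14 and on P3H1 at 0.51, 0.48 and 0.40, while those of MmugDNA.25281.1.S1_at lie between -0.07 and 0.11.

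**Figure D3:**
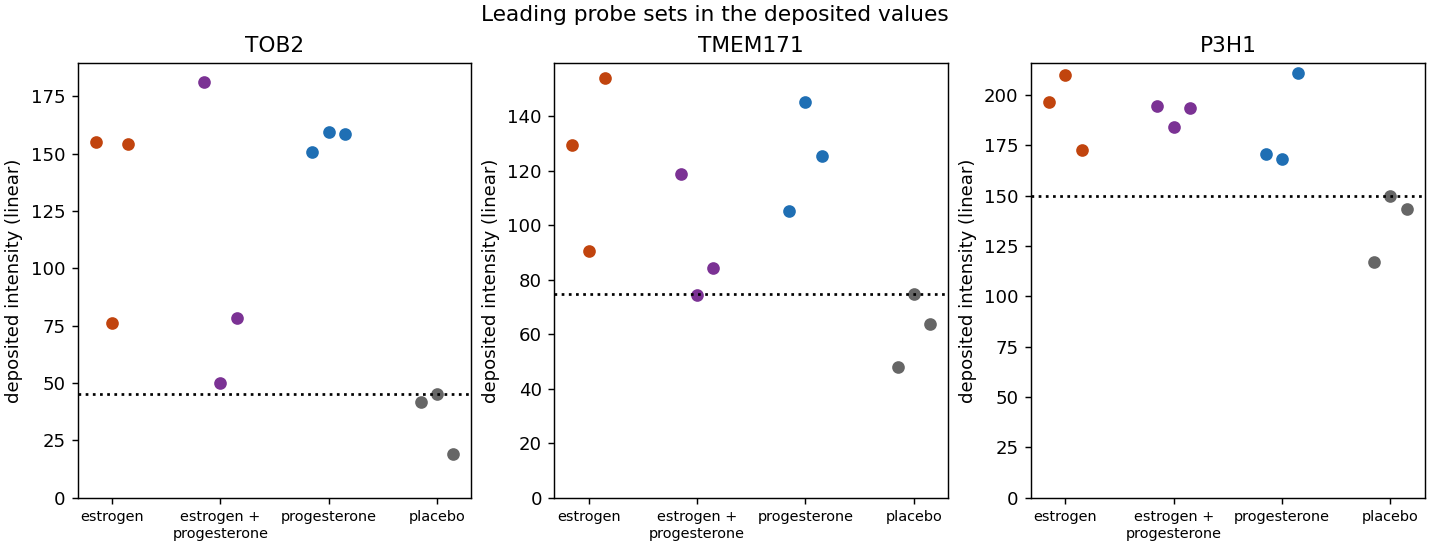
Deposited linear intensity (vertical axis, from 0) of the leading probe set of each gene in the 4 groups, 1 point per array, with a dotted line at the highest placebo array. For TMEM171 the second array of estrogen plus progesterone, at 74.3, lies just under that line, and for TOB2 and P3H1 all 9 hormone points lie above it.

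The pattern that picked these genes was uncommon but not peculiar to them. Of the 26383 tested probe sets, 71 (0.269%) had all 9 hormone arrays above all placebo arrays, and 70 (0.265%) had all 9 below. Since this contrast chose the members, nothing is read from their place in it: by size of the gap the leading probe sets of TOB2, P3H1 and TMEM171 ranked 9, 12 and 30. The 71 included 32 named genes, each on 1 probe set, and no gene on more than 1. Of these genes, 21 had other tested probe sets, 41 in number, of which 20 were higher on average in the hormone arrays and whose median log2 difference was -0.001, beside -0.02 over all tested probe sets. Of the 71 probe sets, 11 (15.5%) were below the testing level in every placebo array, as TOB2 and TMEM171 were. The named genes just inside the rule were STUB1, PDGFC and MAN1A2, with gaps of 0.0009, 0.002 and 0.007, and those just outside were AUH, KCTD8 and TMSB10, with gaps of -0.0006, -0.0014 and -0.0022. Without the first placebo array the rule was met by 251 probe sets, without the second by 240, without the third by 445, without the third estrogen array by 128 and without the first array of the combination by 111. Fewer arrays had to be cleared in each of these. In limma's comparison of the hormone groups' mean with placebo, 0 probe sets passed after adjustment, with 1204 at an unadjusted p under 0.05.

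**Figure D4:**
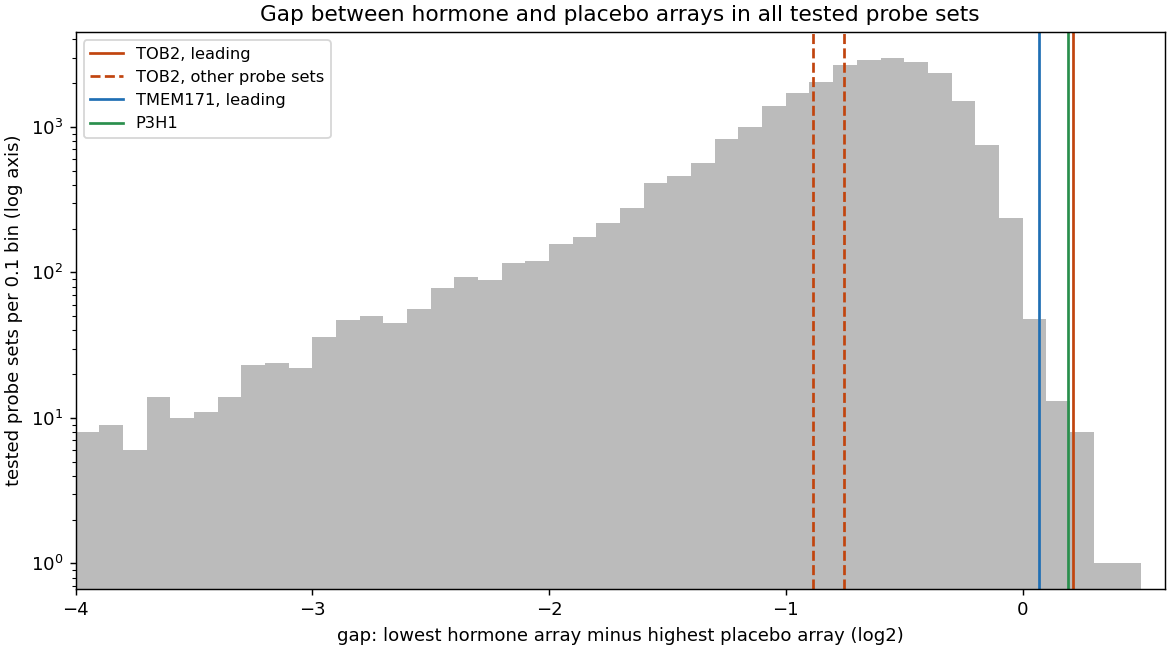
Number of tested probe sets (vertical axis, log scale) by the gap between the lowest hormone array and the highest placebo array (horizontal axis, log2, with the far left tail not drawn). The 71 probe sets right of 0 meet the rule, among them the leading ones of TOB2, TMEM171 and P3H1 (solid lines at 0.21, 0.07 and 0.19), while the 2 other TOB2 probe sets (dashed lines) lie at -0.89 and -0.75, within the bulk.

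The rule set all hormone arrays against placebo and did not compare the hormone groups with each other, so differences among these groups were tested. The tests are not independent of the choice, since a gene with a hormone group at the placebo level could not be chosen. The leading TOB2 and TMEM171 probe sets also reached the testing level only through their hormone arrays. None of the 5 tested member probe sets passed, where limma called 0% of all tested probe sets for the combination against estrogen, 0.0834% for the combination against progesterone, 0.133% for estrogen against progesterone and 0.0948% in the F test over the 3 groups. On the leading TOB2 probe set estrogen plus progesterone differed from estrogen by -0.47 (95% confidence interval -1.39 to 0.46) and from progesterone by -0.74 (-1.66 to 0.19), and estrogen differed from progesterone by -0.27 (-1.19 to 0.65), with adjusted p of 0.9999, 0.536 and 0.892 in limma. The values against estrogen and against progesterone were -0.93 and -1.20 without the first array of the combination, and -0.08 and -0.35 without its second. On the leading TMEM171 probe set these differences were -0.45 (-0.96 to 0.05), -0.40 (-0.91 to 0.11) and 0.05 (-0.45 to 0.56), with adjusted p of 0.9999, 0.541 and 0.969. The intervals leave room for differences of a log2 of 1 or more in TOB2, so equal levels under the 3 treatments were not shown. P3H1 had the narrowest intervals: -0.03 (-0.35 to 0.29), 0.08 (-0.24 to 0.40) and 0.11 (-0.21 to 0.43), with adjusted p of 0.9999, 0.885 and 0.870. From high to low mean level the order was progesterone, estrogen, combination in TOB2, estrogen, progesterone, combination in TMEM171, and estrogen, combination, progesterone in P3H1. Neighbours in these orders overlapped, except that the 3 arrays of the combination in TMEM171, up to 6.75, all lay below the progesterone arrays, which started at 6.77. In the deposited intensities they overlapped, with 119 in the first array of the combination and 105 in the first progesterone array.

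The lowest p among the members was on the brightest TOB2 probe set. Estrogen was lower there than progesterone by a log2 of -1.02 (SE 0.25, 95% confidence interval -1.57 to -0.46), but the adjusted p in limma was 0.204. The arrays of the 2 groups did not overlap. How many tested probe sets share this was not counted for these groups. For progesterone against placebo, all 3 arrays lay above in 7.41% of all tested probe sets and below in 7.86%. Estrogen plus progesterone against progesterone differed by -0.75 (SE 0.25, adjusted p 0.305), and the F test over the hormone groups gave an adjusted p of 0.320. Over the other settings and the fits that left out an array, the adjusted p ran from 0.128 to 0.473 for estrogen against progesterone. Beside these differences, the 3′ minus 5′ log2 signal of the control transcript EF1A was 0.12 to 0.74 in the estrogen arrays and -0.08 to 0.65 with the combination, against -0.37 to -0.31 in the progesterone arrays, and -0.03 to 0.07 with placebo. Its part in the result was not tested. Over all tested probe sets limma called 35 for estrogen against progesterone, 22 for the combination against progesterone, 25 in the F test, and 0 for the combination against estrogen, where 786 had an unadjusted p under 0.05. None of those called was a member. These counts moved with single arrays: without the first placebo array they were 58, 47 and 41 for estrogen against progesterone, the combination against progesterone and the F test, and without the second progesterone array they were 10, 0 and 0.

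The responses to the 2 hormones given together and apart are set side by side as values only, since they rest on the placebo arrays. In the leading TOB2 probe set the separate differences from placebo add up to a log2 of 4.02, against 1.41 measured with the combination. In TMEM171 they add up to 1.92, against 0.54, and in P3H1 to 0.91, against 0.48. The placebo arrays, whose low values chose the genes, enter the sum 2 times and the combined difference 1 time, so nothing is read from the size of these gaps.

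Among the relatives and partners of TOB2 and P3H1, no gene of the 4 lists had all 9 hormone arrays above placebo on its brightest probe set. TOB1, the closest relative of TOB2, had 2 probe sets. On the brighter one the values were 9.76, 9.61 and 9.34 with estrogen, 9.77, 9.51 and 9.27 with the combination, 8.96, 9.02 and 9.01 with progesterone, and 9.59, 9.58 and 9.64 with placebo. The 3 progesterone arrays were the lowest of the 12, with a log2 difference from placebo of -0.61 (SE 0.16) that did not pass (limma adjusted p 0.227). In 7.86% of all tested probe sets the 3 progesterone arrays lay below all placebo arrays. On the second TOB1 probe set, MmugDNA.31523.1.S1_s_at, the hormone arrays differed from placebo by -0.40 on average: 8 of 9 hormone arrays lay between 8.40 and 9.02 and the third progesterone array at 9.31, against 9.13, 9.23 and 9.28 in the placebo arrays. BTG3 averaged -0.04 (SE 0.17), and BTG2 and BTG4 were too dim to be tested. BTG1 had no probe set under that name.

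Of 21 genes of deadenylation, 17 were tested, and in limma none passed in any of the 3 comparisons with placebo, which share the placebo arrays. CNOT7 and CNOT8, the deadenylase subunits that TOB proteins bind, averaged -0.12 (SE 0.13) and -0.21 (SE 0.17) over the hormone groups, and CNOT1, the scaffold of the complex, -0.03 (SE 0.14). The other tested probe sets of CNOT7 were at 0.02, 0.06 and 0.15 and those of CNOT8 at -0.53 and -0.49. With progesterone these CNOT7 probe sets were at -0.12, 0.52 and 0.09, and the brightest at -0.11. The CNOT7 probe set at 0.52 was at -0.20 with estrogen and -0.14 with the combination. Over all 12 arrays the largest differences were those of PABPN1, the nuclear poly(A)-binding protein, at 0.43 (SE 0.19), of CPEB4, a protein that binds cytoplasmic polyadenylation elements, at 0.33 (SE 0.25), and of the CCR4-NOT subunit CNOT11 at -0.27 (SE 0.13). Without the first placebo array, in fits chosen after seeing the data, PABPN1 was at 0.20, CPEB4 at 0.08, CNOT8 at 0.0042 and CNOT1 at 0.07. With all 12 arrays the next brightest probe set of PABPN1 was at 0.19, and the other tested ones of CPEB4 were at -0.06 and 0.73. These were not refitted without the first placebo array. On the CPEB4 probe set at 0.73 the placebo arrays stood at 5.94, 8.06 and 8.35, and the hormone arrays between 7.89 and 8.58. The PABPN1 probe set at 0.19 was at 0.45, 0.37 and -0.25 with estrogen, the combination and progesterone, against 0.27, 0.27 and 0.76 on the brightest. The list's median differences were 0.02 for estrogen, -0.09 for the combination and -0.13 for progesterone, beside -0.01, -0.01 and -0.02 over all tested probe sets. At the threshold used, all tested probe sets gave 0 calls for estrogen (0%), 0 for the combination (0%) and 35 for progesterone (0.133%), with 699, 1017 and 2605 at an unadjusted p under 0.05.

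On their brightest probe sets the partners of P3H1 in its complex stood near 0. CRTAP differed by -0.09 (SE 0.17) and PPIB by 0.02 (SE 0.11) over the hormone groups, with both signs among the fits that left out 1 array (-0.19 to 0.03 and -0.01 to 0.07). The other tested CRTAP probe sets were at -0.04, 0.13 and -0.30 over the hormone groups, and at -0.21, 0.38 and -0.69 with progesterone. Of the 14 tested genes of collagen modification and folding, 8 were higher with estrogen, 9 with the combination and 8 with progesterone, with medians of 0.02, 0.10 and 0.11, and none passed. Of all tested probe sets 48.7%, 47.9% and 46.7% were higher in these comparisons. Over all 12 arrays the 3 largest differences belonged to PLOD1 (1.01, SE 0.35) and PLOD2 (0.51, SE 0.18), which hydroxylate lysine in collagen, and to the collagen galactosyltransferase COLGALT1 (0.21, SE 0.13). The other tested COLGALT1 probe set was at -0.29.

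The brightest PLOD1 probe set ran from 8.96 to 10.19 in the hormone arrays, against 7.31, 9.11 and 9.52 in the placebo arrays. The first placebo array was far below the others, and 5 of 9 hormone arrays cleared all placebo arrays. Without it the PLOD1 difference was 0.34. With that array kept, the other PLOD1 probe sets were at 0.97, -0.06 and 0.36, and these were not refitted without it. On the probe set at 0.97 the placebo arrays stood at 6.69, 8.85 and 9.33, and the hormone arrays between 8.83 and 9.70. The first placebo array was also the lowest placebo array on the probe set at 0.36, and the highest on that at -0.06. PLOD2 ran from 8.03 to 8.82 with a median of 8.37 in the hormone arrays, and stood at 7.86, 7.57 and 8.16 with placebo, so that 7 of 9 hormone arrays cleared the placebo arrays. Of the collagen chains themselves, the substrates of these enzymes, 10 genes were tested. Over the hormone groups 3 of the 10 were higher on average, where 45.5% of all tested probe sets were, with a median of -0.15 beside -0.02. By group, 4 were higher with estrogen, 6 with the combination and 3 with progesterone, with medians of -0.06, 0.01 and -0.13. COL1A2 averaged -0.26 (SE 0.26), COL3A1 -0.20 (SE 0.26) and COL11A1 0.19 (SE 0.14), with ranges of -0.36 to -0.14, -0.33 to -0.09 and 0.12 to 0.31 when 1 array was left out, and none of the 10 passed in any comparison with placebo.

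**Figure D5:**
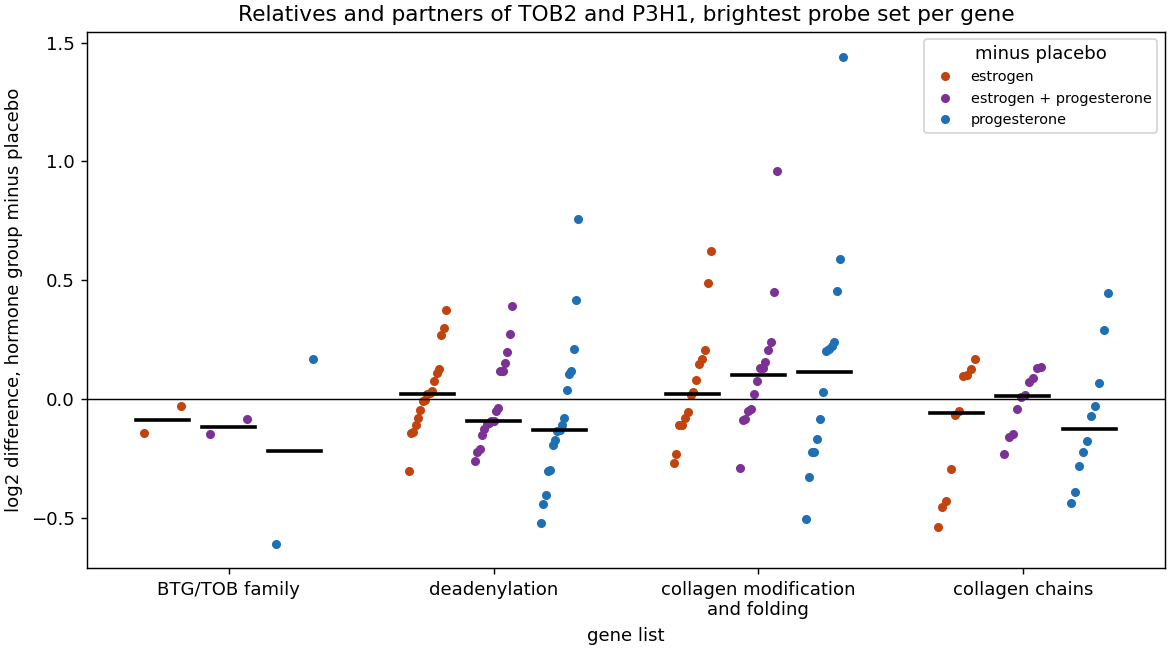
Log2 difference from placebo (vertical axis) of each tested gene in 4 lists (horizontal axis), by hormone group, with the median as a bar. The medians of the lists lie between -0.22 and 0.11, and the point at 1.44 is PLOD1 with progesterone.

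Genome neighbours were looked up by gene order only, in the RefSeq gene table of assembly T2T-MMU8v2.0. P3H1 lies next to C1H1orf50, which had values of 7.98, 7.83 and 7.50 with estrogen, 7.40, 7.35 and 7.49 with the combination, 7.71, 7.96 and 7.99 with progesterone, and 7.59, 7.30 and 7.33 with placebo. The C1H1orf50 arrays under estrogen and under the combination overlapped those of placebo, unlike P3H1, which was chosen for having no overlap. The differences of C1H1orf50 from placebo were 0.36, 0.005 and 0.48 (SE 0.16), with limma adjusted p of 0.9997, 0.9993 and 0.370. On the other side CLDN19 was too dim to be tested. The neighbours of TMEM171 were FCHO2, at -0.07 over the hormone groups (SE 0.17), and TMEM174, at -0.20 (SE 0.21), which was at 0.08 without the first placebo array.

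Among 15015 named probe sets of other genes, those most like each leading probe set over the 12 arrays were listed by Pearson correlation. The arrays share 1 normalization, and since the members are low in the placebo arrays, so are the genes most like them. TOB2 was followed most closely by HYCC1 (r = 0.86), METTL18 (0.85), MFAP3 (0.84), PSMC4 (0.83) and ITGA2 (0.81). TMEM171 was followed by PSMC4 (0.89), AIG1 (0.89), KCNJ2 (0.89), ZC2HC1A (0.87) and LMO4 (0.87), and P3H1 by RBBP6 (0.92), KALRN (0.87), CELF1 (0.86), POMT2 (0.85) and UQCC6 (0.85). PSMC4, an ATPase subunit of the proteasome, stood on the lists of both TOB2 and TMEM171. Over the hormone groups its listed probe set was at 0.59, and its other tested ones at 0.15 and -0.15. Of these genes, PSMC4, AIG1 and KALRN also had all 9 hormone arrays above placebo, as 0.269% of all tested probe sets did. Likeness to members chosen by this pattern favours it.

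Markers of other cell types were measured in the same arrays. All 5 tested cerebellar markers were higher on average in the hormone groups, where 45.5% of all tested probe sets were, although with progesterone CBLN1 was at -0.33, ZIC2 at 0.17 and CBLN3 at 0.04. The summed intensity of the 6 with a probe set ran from 1237 to 2833 with estrogen, 995 to 2051 with the combination, 921 to 1539.9 with progesterone and 994 to 1205 with placebo. In 6 of 9 hormone arrays this sum was above all placebo arrays, and in 1 it was below. The sums of other markers were above all placebo arrays in 5 hormone arrays for oligodendrocytes, 4 for astrocytes and 3 for ependyma and choroid plexus. They were below all placebo arrays in 2, 3 and 4. For endothelium 1 was above and 0 below, and for microglia 0 and 0. CA8, made in Purkinje cells, averaged 0.53 higher (0.33 without the second placebo array) and cleared placebo in 8 of 9 hormone arrays, while the Purkinje marker PCP2 was dim (mean log2 4.23) and GABRA6 had no probe set under that name. The sum over 4 fibroblast and mural cell markers, the cells that make most fibrillar collagen, ran from 632 to 1286 with estrogen, 853 to 1086 with the combination, 862 to 1115 with progesterone and 825 to 1073 with placebo, with 4 of 9 hormone arrays above all placebo arrays and COL1A1 dim (mean log2 3.30). The sum over 4 serotonin neuron markers ran from 2288 to 3569 with estrogen, 2033 to 2720.3 with the combination, 1452 to 2043 with progesterone and 2118 to 3144 with placebo, so that all 3 progesterone arrays were below all placebo arrays. The part of these cell types in the members' values was not tested.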

How the data were processed

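RNA from a dorsal raphe block of each of 12 monkeys was hybridised to 1 Affymetrix rhesus array. The authors deposited 1 linear signal intensity per probe set and array, with a trimmed mean near 200.0 on every array, and the sources do not name the software that made it. The members, the gene lists and the tests were chosen with earlier results of these data known. From the deposited intensities, 99 control probe sets were removed, values under the 5th percentile were set to it (4.99), log2 was taken, and arrays were quantile normalized because their median log2 intensity ranged from 6.15 to 6.62. Probe sets whose mean reached the median of all means (log2 6.31) were tested. limma 3.58.1 in R 4.3.3 fitted 1 mean per group with 8 residual degrees of freedom, with two-sided moderated tests and Benjamini-Hochberg adjustment over all 26383 tested probe sets (threshold 0.05), and the script was tested on simulated data. An exact permutation test of 3 against 3 arrays cannot go below 0.1. The array platform's annotation named 24956 probe sets with 1 symbol, 361 with several and 27449 with none.

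The 4 groups share replicate numbers in their titles. Deviations from the group mean of same-numbered arrays correlated at 0.14 to 0.51 between the combination and estrogen and at 0.10 to 0.27 between the combination and placebo, above the limit of 0.1 in each pair, and not so in the other group pairs (lowest -0.26). Differently numbered arrays correlated at -0.41 to 0.27 between the combination and estrogen, with 2 values above 0.1. Between the combination and placebo they correlated at -0.25 to 0.11, with 1 value above 0.1. The replicate numbers were used as a block only as an alternative. Named genes are all probe sets of the members, the 5 probe sets most like each leading one, the nearest coding gene on each side of TMEM171 and P3H1 (those of TOB2 are not reported here), the 3 largest differences of each list with TOB1, CNOT1, CNOT7, CNOT8, CRTAP and PPIB, the 3 named probe sets on either side of the rule's threshold, and the cell type markers. Lists used the brightest probe set of a gene. Other alternatives changed the normalization, the floor, the filter, the variance model and the arrays in the fit.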

Additional observations from a re-analysis of the deposited data

Results flagged for a closer look

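In the leading TMEM171 probe set, each hormone went with a higher signal when set against placebo and with a lower one when added to the other hormone. Every estrogen array was above the placebo mean (difference 0.99 on the log2 scale), whereas every array of estrogen plus progesterone was below the progesterone mean (-0.40). Every progesterone array was above the placebo mean (0.94), whereas every array of estrogen plus progesterone was below the estrogen mean (-0.45, or -0.25 without the third estrogen array). The value against progesterone was -0.27 without the second progesterone array. The rule that chose the gene required every hormone array to lie above all placebo arrays, so the higher signals against placebo were fixed in advance. For this reason the difference between these effects was not tested, and nothing is read from the turn in sign. In limma the adjusted p was 0.541 for the combination against progesterone and 0.9999 for the combination against estrogen.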

How the results depend on the processing

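None of the members was called in any comparison among hormone groups under any alternative run, with 5 member probe sets tested, 6 with no filter and 2 with the filter at the 75th percentile, where the leading probe sets of TOB2 and TMEM171 and that of P3H1 were not tested. The gap between hormone and placebo arrays in TMEM171 was -0.012 with the deposited scaling only. Of the other settings' values, 322 counted as unchanged, 19 as moved and 5 as reversed. A tested difference counted as unchanged if it kept its sign and its call, however far its size moved. Counts and untested values were allowed a margin. Calls over all probe sets for estrogen against progesterone (35) were 23 with median alignment, 21 with no filter, 15 with the filter at the 75th percentile, 54 with an intensity trend and 72 without the first arrays of estrogen, the combination and placebo (the 3 that stood apart). For the combination against progesterone (22) they were 4 with the stricter filter, 34 with the trend and 40 with only the 9 hormone arrays. In the F test (25) they were 15 with median alignment, 5 with the stricter filter, 42 with only the 9 hormone arrays and 57 without the 3 arrays apart. Probe sets meeting the rule (71) numbered 39 with median alignment, 144 with no filter, 37 with the stricter filter and 502 without the 3 arrays apart, where fewer arrays have to be cleared. With the replicate number as a block, calls for estrogen against progesterone were 19, and the block changed no member's call.

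Signs turned in small differences. Estrogen against progesterone on MmugDNA.25281.1.S1_at (TOB2) was 0.15 with median alignment, 0.0065 with the deposited scaling only and 0.11 without the 3 arrays apart, and on the leading TMEM171 probe set it was -0.028 with the deposited scaling only. Leaving out 1 array at a time, these ran from -0.20 to 0.12 and from -0.15 to 0.22. Over the same fits, estrogen against progesterone on the leading TOB2 probe set ran from -0.46 to 0.027, the combination against progesterone on MmugDNA.25281.1.S1_at from -0.020 to 0.30, and the combination against estrogen in P3H1 from -0.078 to 0.035. The cause was not tested.

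Leaving out 1 array moved calls for estrogen against progesterone from 10 to 58, for the combination against progesterone from 0 to 47, for the combination against estrogen from 0 to 1 and in the F test from 0 to 41, and the count meeting the rule from 85 to 445. For estrogen against progesterone there were 17 and 11 calls without the second and the third estrogen arrays, 22 without the second of the combination and 14 without the third progesterone array. For the combination against progesterone there were 14 without the second placebo array, 4 and 3 without the first and second of the combination, and 34 and 6 without the first and the third progesterone arrays. In the F test there were 15 without the third estrogen array, 14 and 16 without the second and the third of the combination and 8 without the third progesterone array. With fewer arrays to clear, neither the gap nor the count meeting the rule can fall, apart from small shifts of normalization and filter. Their ranges are therefore no check on the members. The gap ran from 0.21 to 0.84 in TOB2 (the highest without the second array of the combination), from 0.07 to 0.25 in TMEM171 and from 0.19 to 0.24 in P3H1. With the deposited scaling only it was 0.15 in TOB2 and 0.17 in P3H1. With 3 arrays a group and placebo signals of TOB2 near the level of the brightest controls, small differences were not detectable.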
